A study of Rattus norvegicus with 12 samples.

Results

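The genes described here are the D cyclins Ccnd1, Ccnd2 and Ccnd3, their kinases Cdk4 and Cdk6, and the Cdk inhibitors Cdkn1a, Cdkn1b, Cdkn1c, Cdkn2b and Cdkn2c. Every probe set (short array probes for the 3′ end of 1 transcript) whose only gene symbol in the platform annotation was one of these 10 was taken, which gave 15 of the 31042 probe sets on the array. All values are log2 signals. Testing required a signal above the 40th percentile of the array in 3 or more of the 12 arrays. This left 13 of the 15 probe sets and 9 of the 10 genes, and 20834 probe sets in all. The 13 lay above that percentile on every array, so the filter did not favour any group among them.

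The neural stem cells (NSCs), cultured cells that divide and can form neurons and glia, had been taken from Sprague Dawley rats at postnatal day 3 to 5, from either brain or spinal cord. The 4 groups are proliferative brain cultures (BNSC in the titles), differentiated brain cultures (BNSCfenhua), proliferative spinal cord cultures (SNSC) and differentiated spinal cord cultures (SNSCfenhua), with 3 arrays each and no genetic change. The procedure and duration of differentiation, and whether animals were pooled, are not given in the sources used here. No label states that arrays of 1 group are independent cultures, so each p-value reflects only variation among these arrays, part of which may be technical.

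D cyclins are made when growth factors act on a cell, and they switch on Cdk4 and Cdk6 in G1, the phase before DNA synthesis. The active kinases phosphorylate the retinoblastoma protein Rb, which then releases E2F transcription factors and lets the genes of S phase be transcribed. Inhibitors of the INK4 family (Cdkn2a to Cdkn2d) bind Cdk4 and Cdk6 themselves, while those of the CIP/KIP family (Cdkn1a, Cdkn1b and Cdkn1c) bind cyclin and kinase complexes, Cdk2 included. In the nervous system both families are known for their part in cell cycle exit of neural and glial progenitors, and Ccnd1 and Ccnd2 for driving the division of these progenitors.

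RefSeq promoter entries of the GRCr8 assembly were found for 6 of the 10 genes, and 3 are shown because they hold elements of growth-regulated transcription. Each is the 250 bases before the annotated start, 5′ to 3′ on the gene's strand. In Cdk4 (chr7:64771203-64771452, plus strand) capitals mark the E box CACGTG, the element that Myc binds. In Ccnd3 (chr9:20897876-20898125, minus strand) and Cdkn2b (chr5:109134856-109135105, minus strand) they mark the core of the cyclic AMP response element (CRE), TGACGTC, and the GC box GGGCGG, on either strand.
Cdk4: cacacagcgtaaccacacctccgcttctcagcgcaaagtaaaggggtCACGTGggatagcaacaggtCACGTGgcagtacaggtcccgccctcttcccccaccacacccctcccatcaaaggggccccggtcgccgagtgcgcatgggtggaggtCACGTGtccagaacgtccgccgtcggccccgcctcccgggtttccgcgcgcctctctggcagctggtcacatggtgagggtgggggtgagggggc
Ccnd3: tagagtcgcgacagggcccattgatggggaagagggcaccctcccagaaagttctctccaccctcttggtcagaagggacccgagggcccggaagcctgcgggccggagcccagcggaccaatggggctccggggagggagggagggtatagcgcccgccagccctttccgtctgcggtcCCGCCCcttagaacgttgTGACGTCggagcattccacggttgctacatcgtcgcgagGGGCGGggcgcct
Cdkn2b: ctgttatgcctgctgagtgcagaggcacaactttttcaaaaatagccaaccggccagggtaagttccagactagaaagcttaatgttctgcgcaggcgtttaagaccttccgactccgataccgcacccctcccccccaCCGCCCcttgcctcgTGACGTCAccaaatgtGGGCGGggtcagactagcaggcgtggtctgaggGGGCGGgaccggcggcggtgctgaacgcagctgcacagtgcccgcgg
Cdk4 held the E box at 3 places, starting 203, 183 and 95 bases before its start, and 5.59% of 33469 promoters of the same length held it at least once. The CRE core lay 52 bases before the start of Ccnd3. It began 96 bases before that of Cdkn2b, there within the full palindrome TGACGTCA, so that both strands match and the searches for core and palindrome overlap. The core was found in 2.8% of promoters, the palindrome in 1.59% and the GC box in 30.5%. The GC box was also present in Cdk4, where it is not capitalised, and in Cdkn1b and Cdkn2c. CCAAT, found in 34% of promoters, was present in Ccnd3 and Cdkn1b. TATAAA (12.9% of promoters) and an E2F motif searched as TTTCCCGC, TTTGGCGC, TTTCGCGC or TTTGCCGC (1.73%) were found in none of the 6 windows, which says only that these letters are not there.

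Array medians lay between 6.88 and 7.23, no arrays were identical, and arrays of a group correlated more closely (r = 0.930 to 0.948 over probe sets) than arrays of different groups (0.845 to 0.909). Sox2, a transcription factor of neural stem cells, was bright in all groups, with means of 12.6, 13.2, 12.8 and 11.6 in the order BNSC, BNSCfenhua, SNSC and SNSCfenhua. Of 8 measured stem cell markers, Hes5 was dim (all 3 arrays under their own 40th percentiles) in every group but BNSCfenhua. On differentiation 5 of the 8 rose and 1 fell in brain (median 0.30), and 1 rose and 5 fell in spinal cord (median -1.03). Between tissues 1 was higher and 4 lower in proliferative spinal cord cultures (median -0.34), and 0 higher and 7 lower in differentiated ones (median -1.76). Markers of other cell types also differed. The summed linear signal of 9 fibroblast, meningeal and mural markers was 1050 to 2320 in BNSC, 1750 to 2190 in BNSCfenhua, 24500 to 43800 in SNSC and 98500 to 114000 in SNSCfenhua. As a measure of RNA integrity, the 3′ signal of Gapdh exceeded its 5′ signal by -0.13 to 0.13, and that of Actb by 0.69 to 1.01. These values were not alike in all groups. For Actb they were 0.77 to 0.84 in BNSC, 0.73 to 0.81 in BNSCfenhua, 0.69 to 0.99 in SNSC and 0.99 to 1.01 in SNSCfenhua. For Gapdh they were 0.08 to 0.13 in BNSC and -0.13 to 0.07 in BNSCfenhua, with the spinal cord groups overlapping. The part of RNA integrity in the comparisons was not tested. SNSC replicate 1 stood apart: it was the lowest array of its group for 9 of the 13 tested probe sets and the highest for 2, and its mean over S phase genes was 10.69 against 9.65 and 9.76. In such bulk cultures fewer cells of a type and less RNA per cell cannot be told apart. No scan date or other batch is given in the sources used here.

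The first question was what the family did when brain NSCs differentiated. Ccnd1 fell, Cdkn1c rose 12.7-fold, Cdkn2c and Cdkn1b on 1373812_at rose slightly, and Cdkn2b fell. The other Cdkn1b probe set, 1369192_at, was not called. Of the 13 tested probe sets 7 passed an adjusted p of 0.05 in limma's moderated test (Benjamini-Hochberg over all probe sets tested), 3 higher and 4 lower in differentiated cultures. That is 53.8% of them, against 46.9% of all tested probe sets (23.7% higher and 23.1% lower), so the share of calls lay near the background. The groups did not overlap for 9 of the 13, against 58.3% of all. The median size of the change, sign ignored, was 0.54 for the family and 0.47 for all. Rises made up 50.6% of all calls, and 38.2% with array medians subtracted, which moved the median of all probe sets from 0.00 to -0.15; the direction of the 7 calls held.

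In spinal cord the same comparison again gave 7 calls, 3 higher and 4 lower (53.8%, against 40.3% of all tested probe sets, 18.3% higher and 22.0% lower). Ccnd1 and Cdkn2b fell and Cdkn1c rose there too, while Ccnd3 and 1 of the 2 probe sets of Cdkn1a rose. The groups did not overlap for 8 of the 13, against 50.3% of all. Called in the same direction in both tissues were 5 probe sets (3 of Ccnd1, and those of Cdkn1c and Cdkn2b), 2 were called in brain alone, 2 in spinal cord alone, 4 in neither and 0 in opposite directions. Whether a change differed between the tissues rests on the test of the difference itself, which is the spinal cord response minus the brain response. That test called 5 of the 13 (38.5%, 2 higher and 3 lower), against 40.5% of all (18.8% higher and 21.7% lower). Positive differences made up 46.4% of all these calls, and 61.3% with array medians subtracted (median of all from -0.04 to 0.19).

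**Figure D1:**
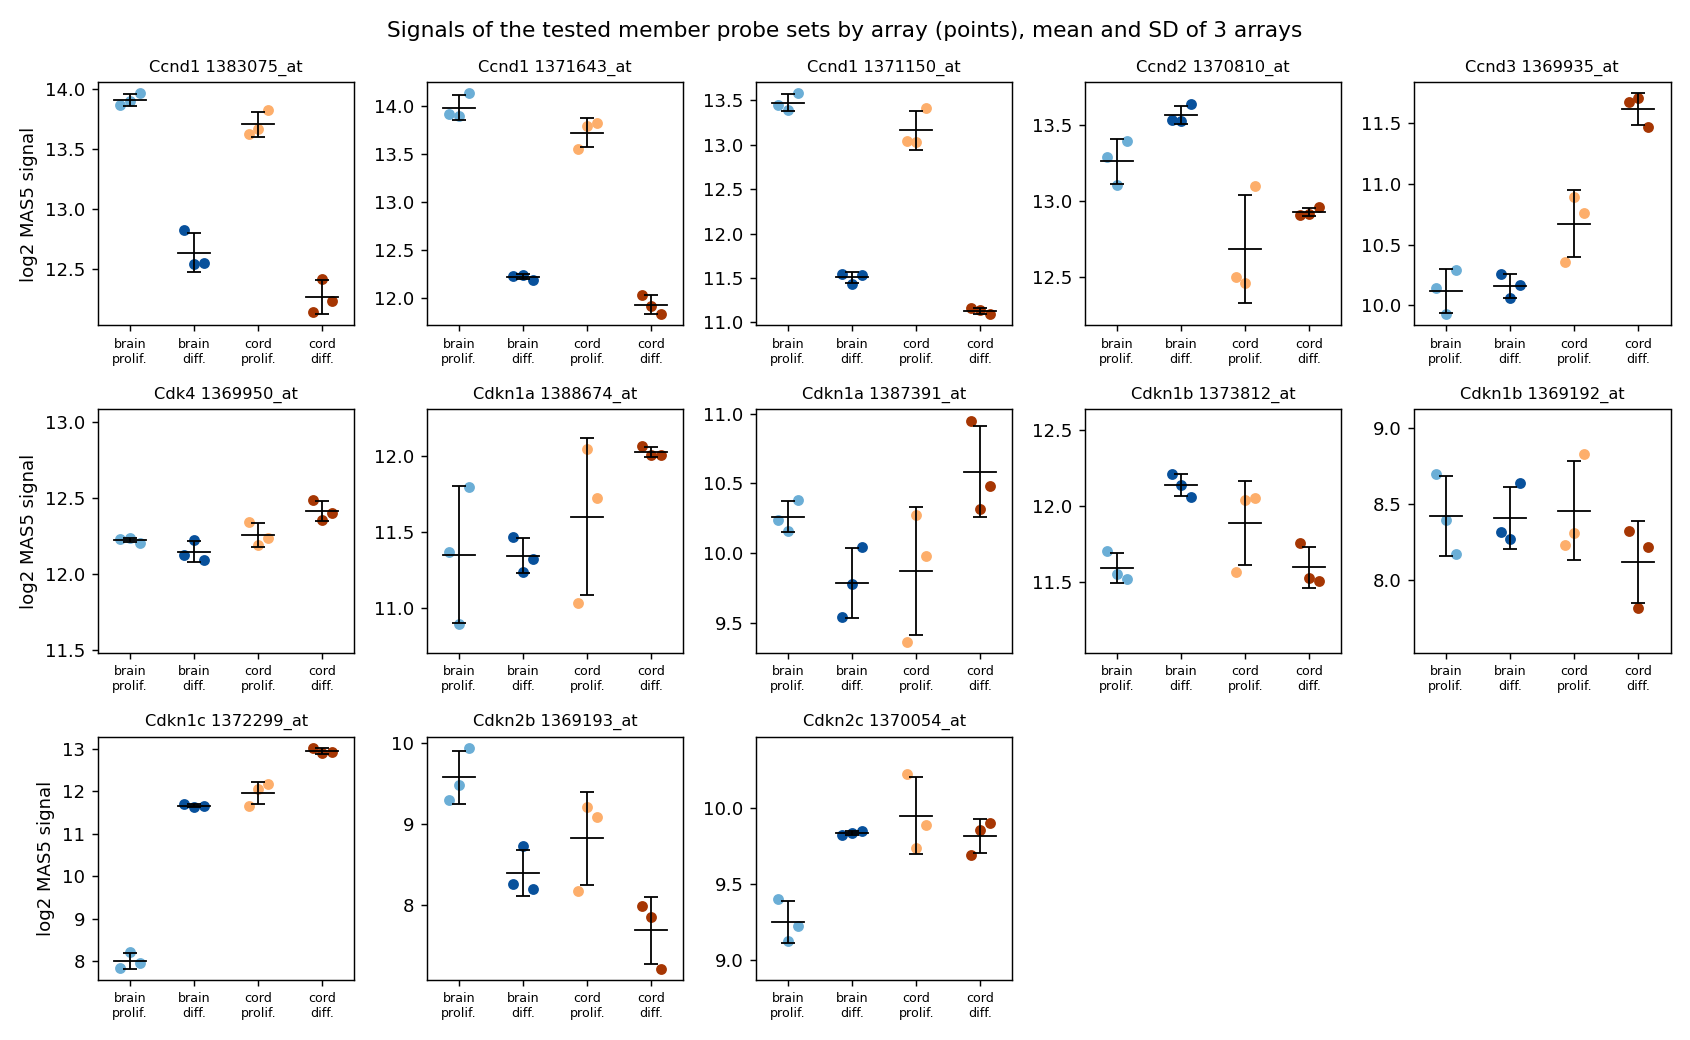
Log2 signals of the 13 tested probe sets (y axis) in the 4 groups of 3 arrays (x axis), each point 1 array, with the group mean and SD. Ccnd1 drops from 13.91 to 12.64 in brain and from 13.71 to 12.26 in spinal cord on probe set 1383075_at, and Cdkn1c is low in proliferative brain cultures only.

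Among the D cyclins, Ccnd1, the D cyclin most closely tied to growth factor signalling, fell in both tissues on all 3 of its probe sets. On 1383075_at the signals were 13.87, 13.90 and 13.97 in BNSC and 12.83, 12.54 and 12.55 in BNSCfenhua. They were 13.63, 13.67 and 13.82 in SNSC and 12.14, 12.42 and 12.23 in SNSCfenhua. Every differentiated array lay below every proliferative array. In brain the fall was 2.42-fold (-1.27 ± 0.10 SE on the log2 scale, adjusted p = 2.97e-07), and in spinal cord 2.72-fold (adjusted p = 1.14e-07). Neuron markers fell on the same arrays, 5 of 8 in brain (median -1.09) and 4 of 8 in spinal cord (median -1.23), with 0 rises in either. Their summed linear signal was 5730 to 11400 in BNSC, 3200 to 3340 in BNSCfenhua (Nefl dim), 4140 to 4730 in SNSC and 1230 to 1420 in SNSCfenhua. Their part in the Ccnd1 result was not tested.

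The other Ccnd1 probe sets showed larger falls. On 1371150_at the signals went from 13.45, 13.40 and 13.58 to 11.55, 11.43 and 11.54 in brain, a fall of 3.91-fold (adjusted p = 6.79e-09). In spinal cord they went from 13.04, 13.04 and 13.41 to 11.16, 11.13 and 11.09, a fall of 4.10-fold (adjusted p = 8.49e-09). On 1371643_at the fall was 3.38-fold in brain and 3.46-fold in spinal cord, again with no overlap. The 3 probe sets followed each other closely over the 12 arrays (r = 0.985 to 0.996), and they share the arrays and the gene. A larger fall than that of 1371150_at was seen in 418 of the 20834 probe sets in brain and in 717 in spinal cord. The fall did not differ detectably between the tissues: the difference was -0.07 (95% interval -0.37 to 0.24, adjusted p = 0.751) on 1371150_at, -0.03 (-0.32 to 0.25) on 1371643_at and -0.17 (-0.47 to 0.13) on 1383075_at. After quantile normalization the last of these passed, at -0.43 (adjusted p = 0.0153).

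Ccnd2, the D cyclin known for sustaining neural progenitors, did not follow Ccnd1. Its signals on 1370810_at were 13.29, 13.10 and 13.39 in BNSC and 13.53, 13.53 and 13.63 in BNSCfenhua, with no overlap but a small difference of 0.30 (95% interval 0.01 to 0.60, adjusted p = 0.0864). In spinal cord they were 12.49, 12.46 and 13.09 in SNSC, where replicate 3 was the highest, and 12.91, 12.91 and 12.96 in SNSCfenhua (difference 0.24, adjusted p = 0.18). Both differences passed without SNSC replicate 3: the brain value stayed at 0.30 (adjusted p = 0.00873), since that array enters only the shared spread, and the spinal cord value became 0.45 (adjusted p = 0.00225). The brain difference also passed with quantile normalization (0.38, adjusted p = 0.0268) and with the brain arrays fitted alone (adjusted p = 0.0184). In all it passed in 4 of 20 other settings, with values from 0.15 to 0.38 and adjusted p up to 0.471. The spinal cord difference passed in 1 of 20, with values from 0.13 to 0.45 and adjusted p up to 0.512.

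Ccnd3, the D cyclin often found in differentiating cells, rose in spinal cord and was not called in brain. Its signals on 1369935_at were 10.14, 9.93 and 10.29 in BNSC and 10.26, 10.06 and 10.17 in BNSCfenhua, which overlap (difference 0.04, 95% interval -0.25 to 0.34, adjusted p = 0.824). In spinal cord they went from 10.36, 10.89 and 10.77 to 11.67, 11.71 and 11.47. This was a rise of 1.92-fold (0.94 ± 0.14 SE, adjusted p = 1.09e-04) with no overlap. The responses differed by 0.90 ± 0.20 SE (adjusted p = 0.00228). Over the same arrays 7 of 9 fibroblast, meningeal and mural markers rose in spinal cord differentiation (median log2 change 1.96) and 1 rose and 2 fell in brain; their part in the Ccnd3 result was not tested.

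**Figure D2:**
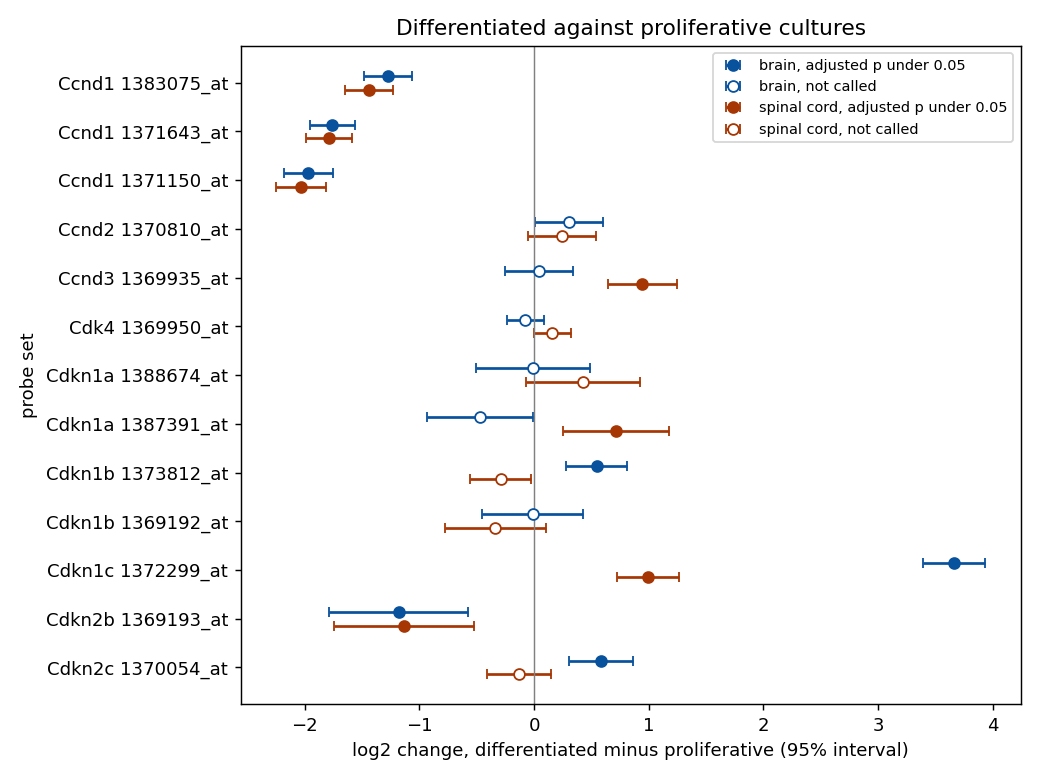
Log2 change of each tested probe set on differentiation (x axis, differentiated minus proliferative) with its 95% interval, for brain (blue) and spinal cord (red); filled points passed an adjusted p of 0.05. The 3 Ccnd1 probe sets lie between -1.27 and -2.03 in both tissues, while Cdkn1c stands at 3.66 in brain and 0.99 in spinal cord.

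Of the kinases, Cdk4 was bright on all arrays, and its change on differentiation passed the threshold in neither tissue. Its signals on 1369950_at were 12.23, 12.23 and 12.20 in BNSC, 12.13, 12.22 and 12.09 in BNSCfenhua, 12.34, 12.19 and 12.23 in SNSC, and 12.48, 12.35 and 12.40 in SNSCfenhua. The brain difference was -0.08 (95% interval -0.24 to 0.08, adjusted p = 0.43) and the spinal cord difference 0.16 (interval from just under 0 to 0.32, adjusted p = 0.111). The spinal cord groups did not overlap. Without SNSC replicate 1 the spinal cord difference passed, at 0.20 (adjusted p = 0.0458). This was 1 of 20 other settings, over which it ran from 0.09 to 0.24 and its adjusted p reached 0.322. Myc, whose element stands 3 times in the printed Cdk4 promoter, was 11.00, 11.17 and 10.71 in BNSC and 9.82, 9.83 and 9.75 in BNSCfenhua. Myc fell 2.23-fold in brain (adjusted p = 8.26e-06) and 1.29-fold in spinal cord (adjusted p = 0.0371). Its binding was not measured here, and its part in the Cdk4 result was not tested.

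Cdk6, the other partner of the D cyclins, was represented by 1 probe set, 1375757_at, which was too dim to test. Its signals ran from 2.28 to 6.49, and it passed the 40th percentile on 2 of the 12 arrays, both of BNSC. Signals this low have no reliable order, so no fold is given.

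Among the CIP/KIP inhibitors, Cdkn1c (p57Kip2) changed most. Its signals on 1372299_at were 7.85, 8.20 and 7.96 in BNSC and 11.70, 11.64 and 11.65 in BNSCfenhua. They were 11.66, 12.05 and 12.17 in SNSC and 13.03, 12.91 and 12.92 in SNSCfenhua. Proliferative brain cultures stood far below the other 3 groups, and differentiated spinal cord cultures were the highest, while BNSCfenhua and SNSC overlapped. In brain the rise was 12.7-fold (3.66 ± 0.13 SE, adjusted p = 2.19e-10), and 170 of the 20834 probe sets rose more. In spinal cord the rise was 1.99-fold (0.99 ± 0.13 SE, adjusted p = 3.13e-05). The responses differed by -2.67 (95% interval -3.05 to -2.29, adjusted p = 1.1e-07). Between proliferative cultures the level in spinal cord was 15.5-fold above that in brain.

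Markers of several other cell types moved on the arrays on which Cdkn1c moved. Of all genes tested, 24.1% rose and 28.5% fell in brain differentiation, and 20.9% rose and 22.6% fell in spinal cord. Between proliferative cultures 21.2% were higher and 22.8% lower in spinal cord, and between differentiated ones 22.3% and 22.4%. In brain differentiation 7 of 7 tested oligodendrocyte markers rose (median 4.15) and 7 of 8 astrocyte markers rose (median 2.31), while between proliferative spinal cord and brain cultures all 7 oligodendrocyte markers were higher in spinal cord (median 4.27). The summed oligodendrocyte signal was 2910 to 5370 in BNSC, 40400 to 49500 in BNSCfenhua, 38300 to 41500 in SNSC and 36800 to 42900 in SNSCfenhua, with Mog and Mobp dim in BNSC. That list gave 0 rises and 2 falls in spinal cord differentiation (median -0.58), where Cdkn1c rose. Astrocyte markers gave 5 rises and 3 falls there (median 0.99). Of 4 oligodendrocyte precursor markers 3 rose and 0 fell in brain (median 0.93), 1 rose and 3 fell in spinal cord (median -2.40), and 3 were higher in proliferative spinal cord than brain cultures (median 1.61). The summed signal of 8 microglia and macrophage markers was 390 to 538 in BNSC (6 of 8 dim), 741 to 818 in BNSCfenhua, 2330 to 4050 in SNSC and 1450 to 1590 in SNSCfenhua, with Itgam and Cx3cr1 dim in all 4 groups. Of 9 fibroblast, meningeal and mural markers 7 rose and 0 fell in spinal cord differentiation (median 1.96), and 1 rose and 2 fell in brain (median 0.21). In spinal cord 7 were higher and 0 lower than in brain in both states (median 4.60 in proliferative and 7.17 in differentiated cultures). Between differentiated cultures 1 astrocyte marker was higher in spinal cord and 7 were lower (median -2.11). Oligodendrocyte markers gave 1 and 2 there (median -0.24), precursor markers 1 and 3 (median -1.88) and microglia and macrophage markers 2 and 0 (median 0.99). Between proliferative cultures astrocyte markers gave 4 and 3 (median 0.20), and microglia and macrophage markers 6 and 0 (median 2.84). Endothelial markers were mostly dim, at 103 to 359 in all, with Pecam1, Tek and Cldn5 dim in every group. The 5S rRNA control moved as well, from 9.50 to 11.02 in BNSC to 7.85 to 8.19 in BNSCfenhua. It was 8.65 to 9.38 in SNSC and 8.09 to 8.75 in SNSCfenhua, which overlap. The part of none of these in the Cdkn1c result was tested.

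**Figure D3:**
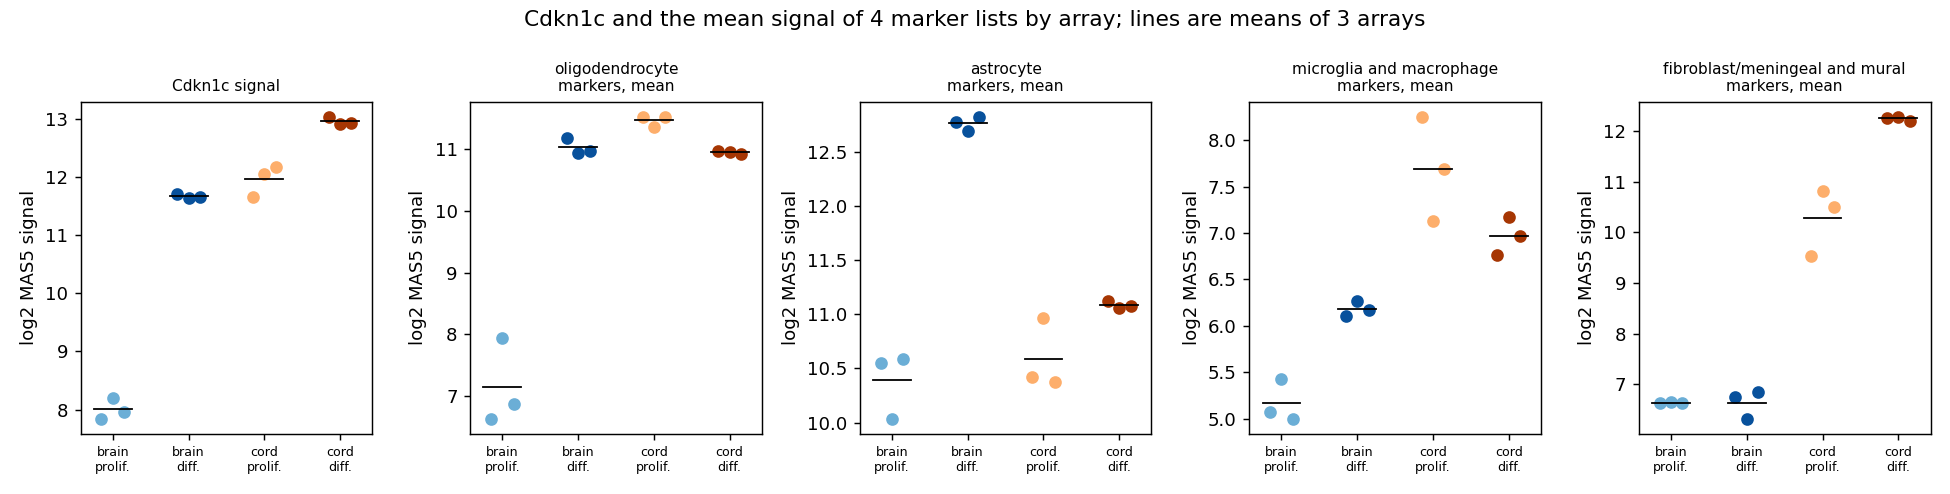
Cdkn1c signal and the mean log2 signal of 4 marker lists (y axes, which differ between panels) in the 4 groups (x axis), each point 1 array, with lines at the means of 3 arrays. The oligodendrocyte list, like Cdkn1c, is low in proliferative brain cultures only, and the fibroblast list is high in the spinal cord groups.

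Cdkn1b (p27Kip1), the inhibitor whose protein level rises in resting cells, gave unlike results in the tissues. On 1373812_at the signals went from 11.70, 11.55 and 11.52 to 12.21, 12.14 and 12.06 in brain, a rise of 1.46-fold (adjusted p = 0.00257) with no overlap. In spinal cord they were 11.57, 12.03 and 12.05 in SNSC and 11.75, 11.52 and 11.51 in SNSCfenhua (difference -0.29, adjusted p = 0.0783), with replicate 1 the low array of SNSC. That difference passed without SNSC replicate 1 (-0.45, adjusted p = 0.00201) and after quantile normalization (-0.34, adjusted p = 0.0347). These were 2 of 20 other settings, over which it ran from -0.45 to -0.21 and its adjusted p reached 0.285. The responses differed by -0.83 (95% interval -1.21 to -0.46, adjusted p = 0.0018). The other probe set, 1369192_at, lay between 7.81 and 8.83 on all arrays and was called in no comparison, and the 2 probe sets correlated at r = 0.45 over the 12 arrays.

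Cdkn1a (p21Cip1), an inhibitor that rises with many stresses, had 2 probe sets that were not called alike (r = 0.67). On 1388674_at the signals were 11.37, 10.89 and 11.79 in BNSC and 11.47, 11.24 and 11.32 in BNSCfenhua, which overlap (difference -0.01, adjusted p = 0.98). In spinal cord the same probe set gave 11.03, 12.05 and 11.72 in SNSC, where replicate 1 was low, and 12.07, 12.01 and 12.01 in SNSCfenhua. That difference of 0.43 (adjusted p = 0.161) passed without SNSC replicate 2 (0.65, adjusted p = 0.0389). This was 1 of 20 other settings, over which it ran from 0.14 to 0.65 and its adjusted p reached 0.594. On 1387391_at the signals were 10.24, 10.16 and 10.38 in BNSC and 9.54, 9.78 and 10.04 in BNSCfenhua, lower without overlap but not past the threshold (-0.47, adjusted p = 0.0866). It passed without SNSC replicate 1 (adjusted p = 0.0269), with array medians subtracted (-0.62, adjusted p = 0.0413) and with the brain arrays fitted alone (adjusted p = 0.0155). These were 3 of 20 other settings, over which the value ran from -0.62 to -0.35 and its adjusted p reached 0.267.

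In spinal cord 1387391_at went from 9.37, 10.27 and 9.98 to 10.95, 10.32 and 10.48, a rise of 1.64-fold (adjusted p = 0.0168). Without SNSC replicate 1 it was 0.46 (adjusted p = 0.0596) against 0.71 with it, and without SNSCfenhua replicate 1 it was 0.53 (adjusted p = 0.0875), so the call rested on either array. The responses of this probe set differed by 1.18 (95% interval 0.53 to 1.84, adjusted p = 0.00661), while on 1388674_at the difference was 0.43 (-0.27 to 1.13, adjusted p = 0.312).

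Of the INK4 inhibitors, Cdkn2b (p15Ink4b), which TGF-beta signalling induces in many cells, fell in both tissues. Its signals on 1369193_at went from 9.30, 9.48 and 9.94 in BNSC to 8.25, 8.72 and 8.19 in BNSCfenhua, a fall of 2.27-fold (-1.18 ± 0.28 SE, adjusted p = 0.00365). In spinal cord they went from 8.16, 9.21 and 9.08 to 7.98, 7.85 and 7.21, a fall of 2.20-fold (adjusted p = 0.00564). SNSC replicate 1, at 8.16, lay closest to the differentiated arrays, and the groups did not overlap in either tissue. The falls differed by 0.04 with a wide interval (-0.82 to 0.91, adjusted p = 0.942), so a difference of size between the tissues could not be resolved. On the same arrays Cdkn1c, of the other inhibitor family, rose in both tissues.

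Cdkn2c (p18Ink4c) rose in brain. Its signals on 1370054_at went from 9.40, 9.13 and 9.23 to 9.83, 9.84 and 9.85, a rise of 1.50-fold (adjusted p = 0.00214), with the 3 differentiated arrays nearly equal. In spinal cord they were 10.23, 9.74 and 9.88 in SNSC, where replicate 1 was highest, and 9.69, 9.85 and 9.90 in SNSCfenhua (difference -0.14, 95% interval -0.42 to 0.14, adjusted p = 0.437). The responses differed by -0.72 (adjusted p = 0.00637), and by -0.49 with array medians subtracted (adjusted p = 0.0504). The second probe set, 1378711_x_at, whose suffix marks probes that can also match other transcripts, was too dim to test (5.22 to 6.44, above the percentile on 1 array).

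The next question was how spinal cord and brain cultures differed within each state. Proliferative cultures gave 6 calls of 13, 3 higher and 3 lower in spinal cord (46.2%, against 37.8% of all tested probe sets, 19.4% higher and 18.5% lower), and 7 of 13 did not overlap, against 45.5% of all. Higher values made up 51.2% of all calls in proliferative cultures, and 31.7% with array medians subtracted (median of all from -0.02 to -0.22). Differentiated cultures gave 10 of 13, 5 higher and 5 lower (76.9%, against 41.4% of all, 18.5% higher and 22.9% lower), and 11 of 13 did not overlap, against 57.2%. The 13 probe sets stand for 9 genes, and these comparisons share arrays with the differentiation comparisons, so the counts do not add evidence to each other.

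In spinal cord cultures Ccnd3 and Cdkn1c were higher in both states, and Ccnd2 was lower in both. Ccnd2 was 1.49-fold lower in proliferative (adjusted p = 0.00467) and 1.56-fold lower in differentiated spinal cord cultures (adjusted p = 0.00199). Ccnd3 was 1.47-fold higher in proliferative (adjusted p = 0.00632) and 2.74-fold higher in differentiated ones (adjusted p = 1.6e-06). The proliferative Ccnd3 difference was 0.55 as deposited and 0.35 with array medians subtracted, where it did not pass (adjusted p = 0.107). Cdkn1c was 15.5-fold higher in proliferative (3.96 ± 0.13 SE, adjusted p = 2.02e-10) and 2.44-fold higher in differentiated spinal cord cultures (adjusted p = 2.08e-06).

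Ccnd1 was slightly lower in spinal cord. In differentiated cultures its 3 probe sets differed by -0.37, -0.29 and -0.38 (adjusted p = 0.00713, 0.0216 and 0.00792 for 1383075_at, 1371643_at and 1371150_at). The call of 1371643_at there was lost in 6 of 20 other settings, among them array medians subtracted (-0.27, adjusted p = 0.139). The calls of 1383075_at and 1371150_at were lost in 0. In proliferative cultures the differences were -0.20, -0.26 and -0.31 (adjusted p = 0.118, 0.0412 and 0.0249), of which the 2 that passed turned on the processing. After quantile normalization they were -0.03 and -0.20, with array medians subtracted -0.47 and -0.52, and neither passed without SNSC replicate 1 (-0.17 and -0.25, adjusted p = 0.136 and 0.0699) or without BNSC replicate 3 (-0.18 and -0.26, adjusted p = 0.159 and 0.0877).

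Cdk4 was 1.20-fold higher in differentiated spinal cord cultures (0.27, adjusted p = 0.0108), and did not pass without BNSCfenhua replicate 3 (0.24, adjusted p = 0.0509). In the same state Cdkn1b was 1.46-fold lower on 1373812_at (adjusted p = 0.003), and Cdkn1a was higher on both probe sets, by 0.68 (adjusted p = 0.0285) and 0.80 (adjusted p = 0.00849). The first of these Cdkn1a calls was lost when any of 5 single differentiated arrays was left out, with values of 0.63 to 0.69. Cdkn2c was 1.62-fold higher in proliferative spinal cord cultures (adjusted p = 8.5e-04) and showed no detectable difference in differentiated ones (-0.02, 95% interval -0.30 to 0.25). Cdkn2b was lower by 0.75 (adjusted p = 0.0503) and 0.71 (adjusted p = 0.0596) in the 2 states, past the threshold in neither; the first passed in 7 of 20 other settings and the second in 2.

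**Figure D4:**
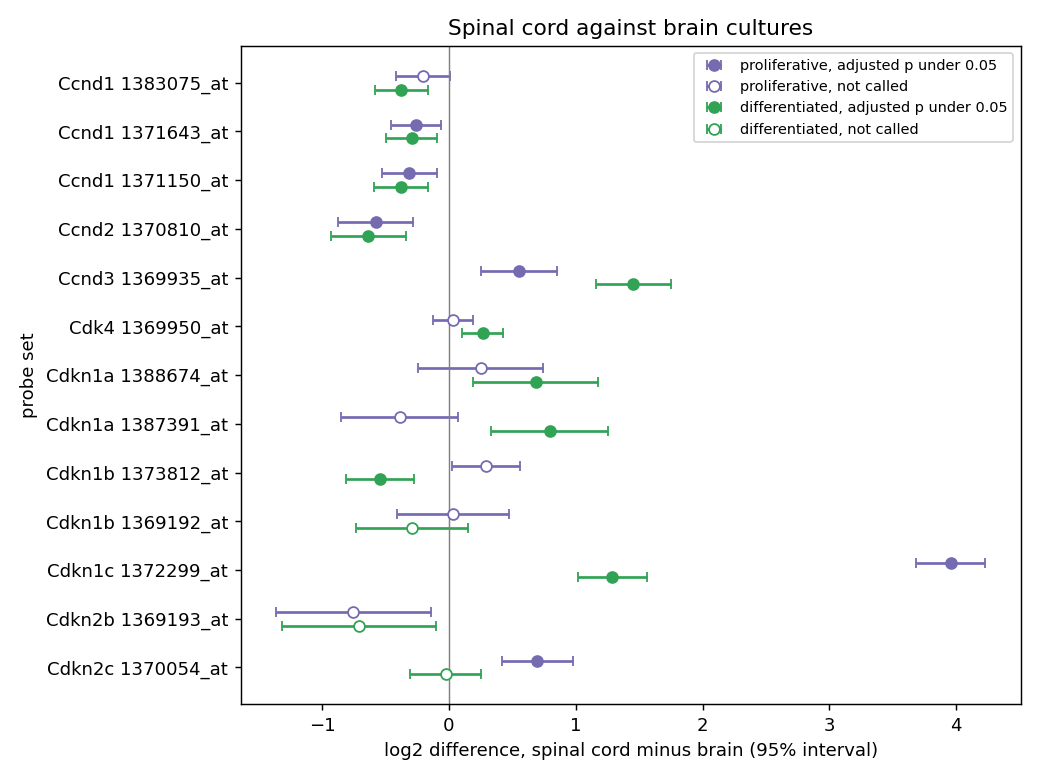
Log2 difference of each tested probe set between spinal cord and brain cultures (x axis, spinal cord minus brain) with its 95% interval, in proliferative and in differentiated cultures; filled points passed an adjusted p of 0.05. Cdkn1c has the largest differences in proliferative cultures, at 3.96, and Ccnd3 in differentiated ones, at 1.45.

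The order of the 4 group means was the same for all 3 Ccnd1 probe sets, BNSC above SNSC above BNSCfenhua above SNSCfenhua, with neighbours apart except for BNSC and SNSC on 1371150_at. Cdkn2b had the same order, with SNSC and BNSCfenhua overlapping. Cdkn1c and Ccnd3 had another order in common, SNSCfenhua above SNSC above BNSCfenhua above BNSC, but the overlapping neighbours were SNSC and BNSCfenhua for Cdkn1c, and BNSCfenhua and BNSC for Ccnd3. For both Cdkn1a probe sets and Cdkn1b 1369192_at all neighbours overlapped.

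The genes whose signals most resembled those of each member over the 12 arrays were found by Pearson's r, which here is a description, since the arrays share 4 group means. For Cdkn1c they were Gng12, a G protein gamma subunit (r = 0.993), Enpp2, the enzyme autotaxin (0.990), and Rnf144a (0.988). For Ccnd1 they were Acot7, an acyl-CoA thioesterase (0.988), Tmx1 (0.983) and Tmed4 (0.980), and for Ccnd3 the adhesion molecule Icam1 (0.988), C7h12orf75 (0.985) and Nupr1 (0.983). Cdkn2c resembled Ccnjl (0.955), Arhgap30 (0.949) and Birc5, a mitotic gene (0.945). Cdkn2b resembled the nuclear receptor Nr4a2 (0.952), Cdkn1a the repressor Bcl6 (0.952), Cdkn1b Saraf (0.969), Ccnd2 the integrin Itga2b (0.942), and Cdk4 Lmo2 (0.937).

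The rest of the pathway was read through 7 lists with 1 probe set per gene, the one with the highest mean, over which 24.1% of all genes tested rose and 28.5% fell in brain, and 20.9% rose and 22.6% fell in spinal cord. Of the other INK4 inhibitors, Cdkn2d (p19Ink4d) rose 1.88-fold in brain (adjusted p = 2.21e-04) and fell 2.01-fold in spinal cord (adjusted p = 1.23e-04), a difference of responses of -1.92 (adjusted p = 9.59e-06). Its signals were 9.45, 8.90 and 9.01 in BNSC, 10.12, 9.99 and 9.99 in BNSCfenhua, 10.31, 10.16 and 10.51 in SNSC, and 9.13, 9.47 and 9.34 in SNSCfenhua. Neither tissue's groups overlapped, and a second probe set gave 1.19 and -1.15.

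Cdkn2a, which encodes p16Ink4a and Arf, lies on the chromosome of Cdkn2b, and their joint span holds 1 other annotated coding gene. Cdkn2a did not follow Cdkn2b. Its signals were 7.81, 8.12 and 8.69 in BNSC, 8.91, 8.88 and 9.15 in BNSCfenhua, 7.95, 10.29 and 9.97 in SNSC, and 10.20, 10.12 and 10.01 in SNSCfenhua. The differences on differentiation were 0.77 in brain (adjusted p = 0.17) and 0.70 in spinal cord (adjusted p = 0.225). SNSC replicate 1 was far below the other arrays of its group, as it was for the fibroblast markers (mean 9.53 against 10.82 and 10.51). Without that array Cdkn2a passed as a rise in brain, a comparison that the array enters only through the shared spread. Without SNSC replicate 2, which leaves more weight on replicate 1, it passed as a rise in spinal cord. The other SNSC values, 10.29 and 9.97, spanned those of SNSCfenhua, so the rise in spinal cord rested on SNSC replicate 1.

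In the Rb and E2F family 3 of 12 genes rose and 3 fell in brain, and 0 rose and 2 fell in spinal cord. Rb1, the substrate of Cdk4, rose 1.30-fold in brain (adjusted p = 0.0375) and fell 1.92-fold in spinal cord (adjusted p = 1.19e-04), a difference of -1.32 (adjusted p = 1.31e-04). E2f5, a repressive E2F, fell in both tissues, 1.98-fold and 2.66-fold, and the brain count was 2 up and 1 down without BNSC replicate 1 or BNSC replicate 2. Among 15 later cyclins, kinases and their regulators 3 rose and 5 fell in brain, and 3 rose and 3 fell in spinal cord. Wee1, a kinase that restrains Cdk1, fell 3.11-fold in brain (adjusted p = 6.54e-05), and the mitotic cyclin Ccnb2 rose 2.61-fold there. Ccne1, the cyclin that follows the D cyclins, rose 1.87-fold in spinal cord (adjusted p = 0.0027), and its partner Cdk2 fell 1.46-fold (adjusted p = 0.0151).

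In the list on turnover of D cyclins and p27, 2 of 13 rose and 6 fell in brain, and 2 rose and 2 fell in spinal cord. Usp2, a deubiquitinase of cyclin D1, rose 2.04-fold in brain (adjusted p = 7.16e-04), Dtl fell in both tissues (1.86-fold and 1.59-fold), and Cul1, a scaffold of SCF ubiquitin ligases, rose 1.59-fold in spinal cord. Without BNSCfenhua replicate 3 the brain count was 1 up and 4 down, and without SNSCfenhua replicate 2 or SNSCfenhua replicate 3 the spinal cord count was 2 up and 0 down.

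Of 18 upstream growth and arrest factors 6 rose and 6 fell in brain and 5 rose and 7 fell in spinal cord. Fosl1, a subunit of the AP-1 factor that is induced by growth factors, fell 12.1-fold in brain (adjusted p = 3.03e-08) and 2.57-fold in spinal cord (adjusted p = 2.11e-04). Klf4, an activator of Cdkn1a, fell by 3.33 on the log2 scale in brain (adjusted p = 2.64e-08), and Mxd4, a Myc antagonist, rose 2.84-fold in brain and 2.60-fold in spinal cord. Mycn rose 2.49-fold in brain (adjusted p = 5.62e-04) and fell at least 1.76-fold in spinal cord, where it was dim in SNSCfenhua and the fold was taken against the mean 40th percentile of those arrays.

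The genes that E2F drives in S phase fell in brain in 12 of 17 cases and rose in 0 (median -0.76, against -0.06 for all genes), Cdt1, the replication licensing factor, by 2.51-fold. In spinal cord 1 rose and 1 fell (median -0.16), Tyms 1.92-fold up and Cdt1 2.11-fold down. The spinal cord count rested on single arrays, with 4 up and 1 down without SNSC replicate 1, 1 and 5 without SNSC replicate 2, and 1 and 3 without SNSC replicate 3. Of 19 mitosis genes 5 rose and 0 fell in brain (median 0.19), against 24.1% up and 28.5% down among all genes, and 0 rose and 6 fell in spinal cord (median -0.46). The mitosis and S phase lists were not tested against each other. In the test of the difference of responses, 4 of 17 S phase genes were called positive and 0 negative. Of all genes 23.7% and 21.2% were. The S phase count was 12 and 0 without SNSC replicate 1, 2 and 0 without SNSC replicate 3, and 9 and 0 with array medians subtracted. For the 19 mitosis genes that test called 0 positive and 8 negative. Mki67, the proliferation marker, did not pass in brain (0.47, adjusted p = 0.0737) and fell 1.61-fold in spinal cord (adjusted p = 0.0162). The brain count for mitosis was 1 up and 1 down without BNSC replicate 2, 7 up and 1 down without SNSC replicate 1, and 3 up and 0 down with array medians subtracted. The spinal cord count stayed at 0 up and 6 down without SNSC replicate 1. That array had a mean of 10.60 over the mitosis genes, against 9.70 and 9.80 on the other SNSC arrays. The SNSCfenhua means were 9.55 to 9.58.

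**Figure D5:**
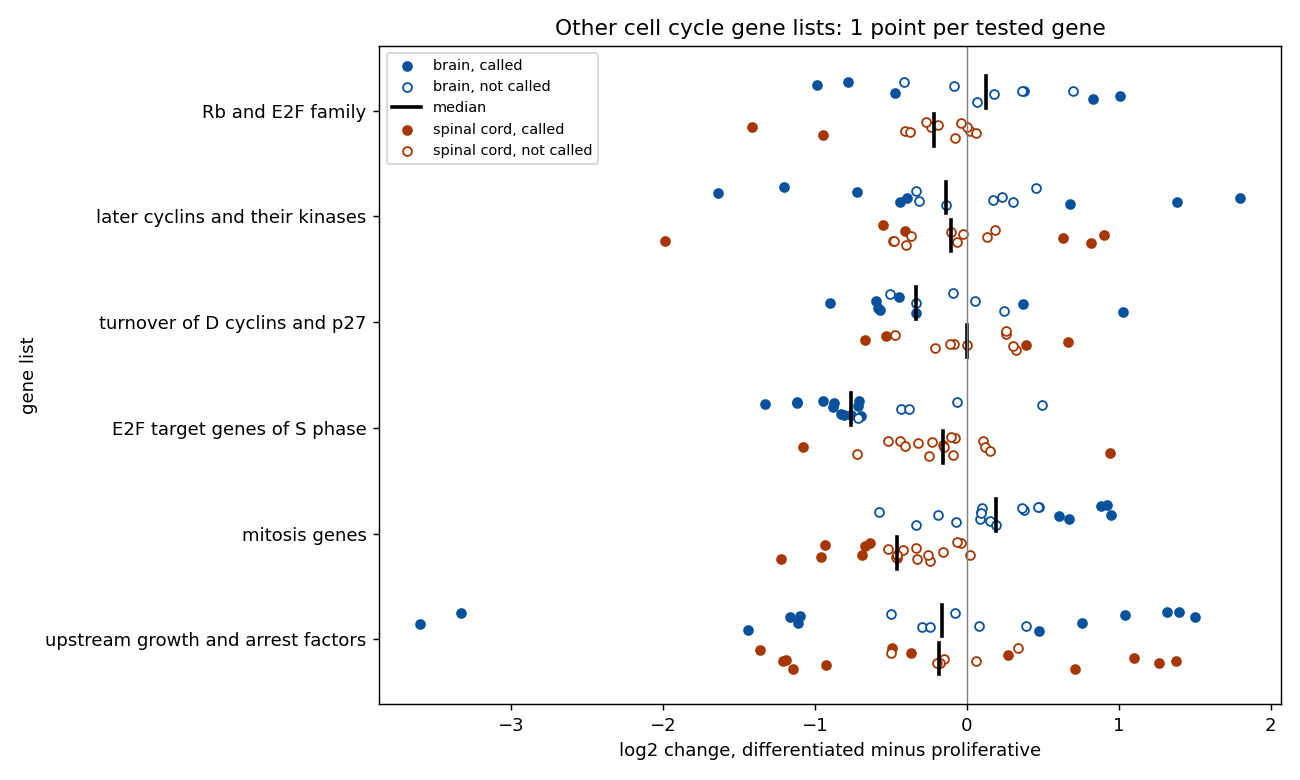
Log2 change on differentiation (x axis, differentiated minus proliferative) of each tested gene of 6 cell cycle lists (y axis), in brain (blue) and spinal cord (red); filled points passed an adjusted p of 0.05 and bars mark medians. The S phase list has its median at -0.76 in brain and -0.16 in spinal cord, and the mitosis list at 0.19 and -0.46.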

How the data were processed

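RNA of cultured NSCs was hybridised as biotin-labelled cRNA to 12 Affymetrix Rat230_2 arrays, per the labels' protocols. The table deposited by the authors holds log2 signals, made with MAS5 and affy, per the submitters' processing notes (versions not given). After conversion to the linear scale each array had a trimmed mean of 500, the target scaling of MAS5, and genes were not centred. Control probe sets (57) were left out. Of 31042 probe sets, 20826 had 1 gene symbol, 436 several and 9780 none.

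A mean per group was fitted to all 12 arrays with limma 3.58.1 in R 4.3.3 (functions lmFit and eBayes, trend on, residual degrees of freedom 8). P-values were Benjamini-Hochberg adjusted over the 20834 probe sets tested. The code was checked on simulated data with independent noise and few changed probe sets, which does not give the error rate for these arrays. Errors are SD (n = 3) or SE, and the number of arrays limits the precision. Figures were drawn in Python 3.11.15 with matplotlib 3.10.9.

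The members and lists were chosen with earlier results of these data known, and so was the floor for dim groups. All members' probe sets are named. Of each pathway list up to 3 called genes with the largest change per comparison may be named, plus a set of core cell cycle genes, and the 3 genes most alike to a member by Pearson's r. Alternatives were array medians subtracted, quantile normalization, a pseudocount of 64 on the linear scale, no filter, a filter at 6 of 12 arrays, no trend, only the groups compared, a replicate block, 1 mean per gene, and leaving out each array. Of 104 pathway genes, 96 were tested. Others, Skp2 and E2f3 among them, were not analysed here, and 1 further list of target genes is not reported here.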

Additional observations from a re-analysis of the deposited data

Results flagged for a closer look

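The response to differentiation differed between spinal cord and brain for 5 probe sets, by the test of the difference itself (limma, spinal cord response minus brain response, adjusted over all probe sets tested). For Cdkn1c the difference was -2.67 on the log2 scale (3.66 in brain and 0.99 in spinal cord, adjusted p = 1.1e-07). For Cdkn1b on 1373812_at it was -0.83 (0.54 in brain and -0.29 in spinal cord, adjusted p = 0.0018). For Cdkn2c it was -0.72 (0.59 and -0.14, adjusted p = 0.00637). For Ccnd3 it was 0.90 (0.04 in brain and 0.94 in spinal cord, adjusted p = 0.00228). For Cdkn1a on 1387391_at it was 1.18 (-0.47 and 0.71, adjusted p = 0.00661). The share of all tested probe sets called in this comparison was 40.5%.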

How the results depend on the processing

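Over the 13 probe sets and 5 comparisons 1222 of 1287 alternative values kept their side of the threshold, 37 lost a call and 28 gained one. The sign was that of the reported value in 1186 of the 1222. In the other 36, from 13 of 65 results, it turned where neither value was called, so an uncalled value carries no direction, and 0 called values turned. With probe sets averaged to 1 mean per gene, brain differentiation gave 4 calls among 9 genes (2 higher and 2 lower) against 7 among 13 probe sets, since the 3 Ccnd1 probe sets then count once and Cdkn1b, whose probe sets differ, did not pass (0.27, adjusted p = 0.138). Leaving out 1 array gave 7 to 8 calls in brain and 6 to 8 in spinal cord differentiation, 4 to 7 and 8 to 11 between tissues in proliferative and differentiated cultures, and 5 to 6 for the difference of responses. The same ranges over all probe sets were 8322 to 10475, 6916 to 8666, 6436 to 8648, 7170 to 9424 and 7446 to 9179. Same-numbered arrays showed no detectable likeness: of 18 same-numbered pairs 0 deviated together with r over 0.1 (range -0.12 to 0.05), and in 1 of them the number was the best match. With so few arrays in a group this cannot show whether same-numbered arrays share animals or handling. A replicate block gave 9415, 7971, 7531, 8196 and 8072 calls over all probe sets, 8, 7, 5, 10 and 5 calls among the members, and passed Ccnd2 in brain (0.30, adjusted p = 0.0473) while dropping Ccnd1 1371643_at between proliferative cultures (-0.26, adjusted p = 0.0624). Cdk4's difference of responses passed with array medians subtracted (0.47, adjusted p = 0.0228) and without SNSC replicate 1 (0.28, adjusted p = 0.0376); the cause was not tested. Detection calls were not used here, so the 40th percentile stands in for signal over background, and Cdk6 and 1 Cdkn2c probe set could not be resolved.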
